A study of Mus musculus with 8 samples.

Results

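The p200 (PYHIN) genes form a family on mouse chromosome 1 whose proteins are known for binding DNA. Probe sets were chosen by symbol in the platform's annotation, taking Ifi203, Ifi204, Ifi205, Mndal, Mnda, Pyhin1 and Aim2. Of these 7 symbols 4 were found, which gave 4 probe sets of the 35556 on the array: Ifi203, Ifi205, Aim2 and a probe set that carries both Ifi211 and Ifi204. That probe set is called Ifi211/Ifi204 below, since its signal cannot be divided between the genes. Mndal, Mnda and Pyhin1 gave no probe set under those names; the RefSeq gene table lists Mnda as an older name of Ifi211, Pyhin1 as one of Ifi209, and Mndal both as a gene of its own and as an older name of Ifi203. Another 7 probe sets of the family, Ifi202b, Ifi206, Ifi207, Ifi208, Ifi209, Ifi213 and Ifi214, are described beside them. The family was chosen with the tamoxifen results of these arrays known, where Ifi203 was among the largest changes, so the values with and without tamoxifen are a description and support nothing.

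The cells were fibroblasts cultured from mouse embryos, of line A (MEF10) and line B (MEF16). Without tamoxifen each line expressed PKM2 and with tamoxifen PKM1, which are splice forms of the glycolytic enzyme pyruvate kinase, and each of the 4 groups had 2 arrays. Genotype, Cre driver, dose, time and embryo age are not given in the sources used here, and the labels do not say whether the arrays of a group came from separate cultures, so the p-values rest on a spread between arrays that may be technical only. Tamoxifen and the isoform it switches cannot be told apart, since no group had one without the other. Pkm itself, on 2 probe sets, was lower with tamoxifen by 0.41 (SE 0.19, limma adjusted p = 0.52) and 0.11 (SE 0.15, 0.89) on the log2 scale, and which exons these probes match is not analysed here.

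Values are RMA log2 values, and differences are in log2 units, so that a difference of 1 is a doubling. The 13 fibroblast markers, such as Col1a1 and Thy1, averaged between 10.55 and 10.82 over the 8 arrays, and 9 epithelial and mammary markers, checked because some label fields name mammary tumors, between 6.67 and 6.79. No detection calls were used. As a guide to signal without expression, the 1035 probe sets of olfactory receptors, genes of the nose, had a median between 5.09 and 5.24 and a 95th percentile between 6.79 and 7.02 on each array; a change measured from values in that range may be understated.

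Most p200 proteins pair a pyrin domain, which binds other pyrin domains, with one or more HIN domains, which bind DNA. Aim2 senses double-stranded DNA in the cytosol and assembles an inflammasome with the adaptor Pycard, which activates caspase-1. Ifi204 is a mouse relative of human IFI16 and, like several of its neighbours, is induced by interferon, which acts through STAT and IRF factors on promoter elements built from repeated GAAA.

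Promoter stretches are shown for Ifi203, Ifi205, Ifi211 and Ifi207, whose probe sets passed for tamoxifen in limma, and for Ifi209 and Aim2, whose probe sets did not. Ifi206, Ifi208, Ifi213 and Ifi214 did not pass either and hold the motif marked here, but are not shown. The first annotated start of Ifi203, without the motif, is also left out. The stretches shown thus cannot say whether the motif goes with the difference. They are from RefSeq (build GRCm38.p6), the 100 bases just before the annotated start except in Ifi205, where the stretch runs from -164 to -65 to take in the motif, 5′ to 3′ on the gene's strand, with each match to the motif GAAA, any 2 bases, GAAA in capitals. In order they lie at chr1:173942493-173942592 (Ifi203, minus strand, the second of its annotated starts), chr1:174031820-174031919 (Ifi205, minus), chr1:173913047-173913146 (Ifi211, minus), chr1:173741810-173741909 (Ifi207, minus), chr1:173630759-173630858 (Ifi209, plus) and chr1:173420504-173420603 (Aim2, plus).
Ifi203: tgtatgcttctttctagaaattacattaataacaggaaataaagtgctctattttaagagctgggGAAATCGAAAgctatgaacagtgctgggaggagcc
Ifi205: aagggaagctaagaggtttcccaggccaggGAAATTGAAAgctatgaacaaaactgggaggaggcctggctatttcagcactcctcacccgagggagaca
Ifi211: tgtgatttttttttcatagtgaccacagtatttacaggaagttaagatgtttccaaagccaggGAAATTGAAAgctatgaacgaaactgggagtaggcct
Ifi207: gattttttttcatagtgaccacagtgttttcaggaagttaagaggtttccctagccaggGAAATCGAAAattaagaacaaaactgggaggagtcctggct
Ifi209: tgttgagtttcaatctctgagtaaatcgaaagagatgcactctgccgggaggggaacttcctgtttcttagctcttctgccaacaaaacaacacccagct
Aim2: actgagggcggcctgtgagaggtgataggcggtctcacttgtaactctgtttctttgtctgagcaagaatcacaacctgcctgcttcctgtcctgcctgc

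This motif, searched on both strands in windows from 250 bases before to 50 after each start, stood in 9 of the 12 p200 genes in the table and in 3.99% of all 27025 genes. Counted from the start, it began at -35 from the second annotated start of Ifi203, while the window of the first start held none, and at -37 in Ifi211, -41 in Ifi207 and -134 in Ifi205, which held another match after its start. The letters GAAATCGAAA, one form of that motif, stood in 7 of the 12 and in 16 of all genes (0.0592%). The 9 genes with the motif included Mndal, which has no probe set here, and Ifi206, Ifi208, Ifi213 and Ifi214, so it was present in genes with and without a large difference on these arrays. Ifi206, Ifi208 and Ifi213 shared with Ifi203 the run ggaaatcgaaagctatgaac of 20 bases around it. The Mndal window shared a run of 139 bases with Ifi203. Aim2, Ifi209 and Ifi202b had no match in this window. The motif TTCNNNGAA, known from STAT binding, was found in 1 of the 12, Ifi202b, and in 9.55% of all genes. The promoter of Ifi204 is not analysed here.

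Ifi203 showed the largest difference of the family with tamoxifen. In line A it was at 5.97 and 6.75 without tamoxifen and at 8.17 and 8.49 with it. In line B the values were 7.40 and 7.04 without and 8.79 and 9.01 with tamoxifen. Every array with tamoxifen was above every array without it, and line A without tamoxifen was low on both arrays, below the olfactory 95th percentile. The mean difference over both lines was 1.83 (SE 0.17, n = 8 arrays), 3.55-fold, which was rank 4 of 23410 from the largest rise. It was 1.97 (SE 0.24) in line A and 1.68 (SE 0.24) in line B. The line A arrays without tamoxifen lay apart from each other, and the line A value was 1.58 without line A PKM2 replicate 1 and 2.36 without line A PKM2 replicate 2.

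Ifi205, the last gene of the cluster, had the same order of groups. It was at 6.15 and 5.78 in line A without tamoxifen and at 7.11 and 7.21 with it. In line B it was at 6.63 and 6.31 without and at 7.54 and 7.70 with tamoxifen. All arrays with tamoxifen, and no array without it, were above the olfactory 95th percentile. The mean difference was 1.17 (SE 0.10), 2.25-fold, with 1.19 (SE 0.15) in line A and 1.15 (SE 0.15) in line B.

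The Ifi211/Ifi204 probe set was above the olfactory 95th percentile on all 8 arrays. Its values were 9.11 and 9.33 in line A without tamoxifen and 9.87 and 10.10 with it. In line B they were 9.59 and 9.32 without and 10.15 and 10.19 with tamoxifen. The arrays with and without tamoxifen did not overlap, although the groups lay closer together than those of Ifi203. The mean difference was 0.74 (SE 0.09), 1.67-fold, 0.76 (SE 0.13) in line A and 0.71 (SE 0.13) in line B.

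Aim2, the inflammasome sensor, stood apart from the other members in its small difference. It was at 6.04 and 5.95 in line A without tamoxifen and at 6.14 and 6.35 with it, and in line B at 6.13 and 5.94 without and 6.07 and 6.42 with tamoxifen. The groups of line A did not overlap and those of line B did, and none of the 8 values passed the olfactory 95th percentile. The mean difference was 0.23 (SE 0.09), 0.25 (SE 0.14) in line A and 0.21 (SE 0.14) in line B. The line B value was 0.04 without line B PKM1 replicate 2 and 0.38 without line B PKM1 replicate 1.

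**Figure D1:**
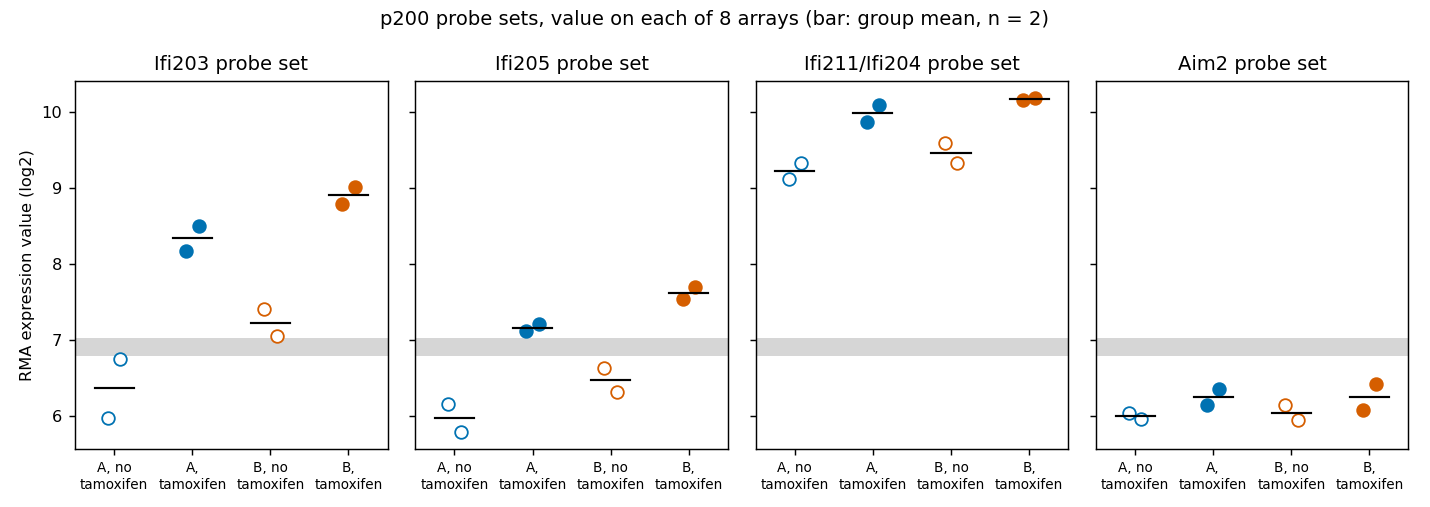
RMA expression values (log2) of the 4 probe sets on each of the 8 arrays, open circles without and filled circles with tamoxifen, line A in blue and line B in orange; black bars are group means of 2 arrays and the grey band is the range over arrays of the olfactory receptors' 95th percentile (6.79 to 7.02). Ifi203, Ifi205 and Ifi211/Ifi204 lie higher with tamoxifen in both lines, while Aim2 stays between 5.94 and 6.42.

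In limma over all 23410 probe sets with a gene symbol, 260 passed an adjusted p of 0.05 for tamoxifen over both lines, 1.11% of those tested, 0.701% as higher and 0.41% as lower, and 9.99% had an unadjusted p under 0.05. Of the 4 member probe sets 3 passed as higher (Ifi203, Ifi205 and Ifi211/Ifi204) and Aim2 did not; the choice of the family used this contrast, so the count is given without further reading. Probe sets whose arrays with tamoxifen all lay above those without made up 2.62% of all tested, and 3 of the 4 members were among them. In either direction the share was 5.36%; within line A 21.3% and within line B 12.1% of all probe sets lay higher with tamoxifen without overlap. The median difference was 0.95 over the 4 members and -0.01 over all probe sets tested. In these bulk samples, more cells that express a gene and more of its RNA per cell cannot be told apart.

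Of the 7 other p200 probe sets, Ifi207 rose and 6 did not pass. Ifi207 was at 6.91 and 7.32 in line A without tamoxifen and at 8.20 and 8.39 with it, and in line B at 7.76 and 7.20 without and 8.70 and 8.86 with tamoxifen. Its arrays did not overlap, and its difference of 1.24 (SE 0.13, limma adjusted p = 0.0028, higher in all 4 arrays with tamoxifen) lay beside that of Ifi205. Ifi209 was at 5.12 and 5.23 in line A without and 5.49 and 5.59 with tamoxifen, and at 6.01 and 5.73 in line B without and 6.38 and 6.77 with it. Within each line its arrays with tamoxifen were the higher ones, and the difference was 0.53 (SE 0.11, adjusted p = 0.057). Ifi209 passed under 4 of 15 alternative settings, with adjusted p-values from 0.014 to 0.67.

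The remaining 5 stayed below the olfactory 95th percentile on every array. Ifi213 was lower on each array with tamoxifen than on any without, by 0.18 (SE 0.08, adjusted p = 0.48). Ifi202b, which lacks the pyrin domain and can block Aim2, lay between 3.63 and 4.01 on the 8 arrays, with a difference of 0.06 (SE 0.07). Ifi206 and Ifi208 differed by 0.07 (SE 0.16) and 0.11 (SE 0.14). Ifi214 differed by 0.31 (SE 0.19) and was at 5.99 on line B PKM1 replicate 2 against 4.93 to 5.36 on the other arrays. The median difference over these 7 probe sets, Ifi207 and Ifi209 included, was 0.11.

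Along the chromosome, in the order of the RefSeq gene table (GRCm38.p6), the genes ran Aim2, Ifi206, Ifi214, Ifi213, Ifi209, Ifi208, Ifi207, Ifi204, Mndal, Ifi211, Ifi203, Ifi202b and Ifi205. The probe sets that passed thus lay next to each other from Ifi207 to Ifi205, apart from Ifi202b, which did not pass, and Mndal, which has no probe set here. The members were in part chosen for this difference, so the position is a description. Outside the cluster, 10 measured neighbours, 5 on each side, had differences between -0.12 and 0.07, and 0 passed; they are Cadm3, Ackr1, Fcer1a and 7 olfactory receptor genes. Relatives of the cluster are alike in sequence, and whether a probe matches several of them was not tested.

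**Figure D2:**
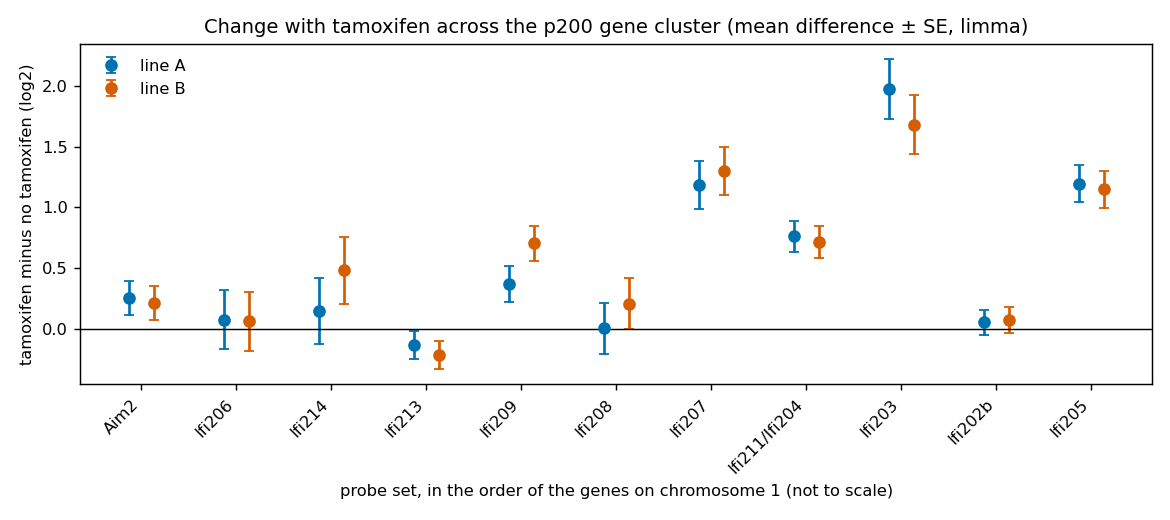
Difference with tamoxifen (log2, mean ± SE from limma, 2 arrays per group) for the 11 p200 probe sets in gene order on chromosome 1, not to scale, line A in blue and line B in orange. Values near or above 0.7 in both lines stand at Ifi207, Ifi211/Ifi204, Ifi203 and Ifi205, and line B alone reaches 0.70 at Ifi209.

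The difference with tamoxifen was compared between the lines by the interaction term. This term is built from the tamoxifen differences of the 2 lines, which were known when the family was chosen. Line B minus line A was -0.30 for Ifi203 (95% interval -1.08 to 0.49), -0.04 for Ifi205 (-0.53 to 0.45), -0.05 for Ifi211/Ifi204 (-0.47 to 0.37) and -0.04 for Aim2 (-0.49 to 0.41). None of the 4 passed (limma adjusted p = 1 for each), and 0 had an unadjusted p under 0.05. Over all probe sets 0 of 23410 passed and 3.02% had an unadjusted p under 0.05. For Ifi203 the sign turned, to 0.10, without line A PKM2 replicate 1.

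Between the lines, averaged over tamoxifen, 3 of the 4 members were higher in line B with intervals above 0, and 0 passed the limma test over all probe sets. Ifi203 was higher in line B by 0.71 (SE 0.17, 95% interval 0.34 to 1.08, limma adjusted p = 0.09). Ifi205 was higher by 0.48 (SE 0.10, 0.26 to 0.71, adjusted p = 0.055) and passed under 2 of 15 alternative settings, with adjusted p-values from 0.027 to 0.23. Ifi211/Ifi204 was higher by 0.21 (SE 0.09, 0.02 to 0.40, adjusted p = 0.54), and Aim2 differed by 0.019 (SE 0.09, -0.19 to 0.23, adjusted p = 0.99). Without tamoxifen the line difference of Ifi203 was 0.86 (SE 0.24) and with it 0.57 (SE 0.24); for Ifi205 these were 0.51 (SE 0.15) and 0.46 (SE 0.15). In both conditions the line B arrays of Ifi203 and Ifi205 lay above those of line A, as did 16.4% of all probe sets without and 21.5% with tamoxifen. In the averaged comparison 1.23% of all probe sets passed in limma, 0.585% as higher and 0.641% as lower in line B, and 8.16% had an unadjusted p under 0.05. Of the 4 members 0 passed and 3 had an unadjusted p under 0.05.

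Of the other p200 genes, Ifi209 was higher in line B. Every line B array, from 5.73 to 6.77, lay above every line A array, from 5.12 to 5.59, a separation seen in that direction in 2.75% and in either direction in 4.72% of all probe sets. The difference was 0.86 (SE 0.11, limma adjusted p = 0.0043), 1.82-fold, and it passed under each of 14 alternative settings (adjusted p from 0.0018 to 0.036). All of these values are below the olfactory 95th percentile. Ifi202b was also separated between the lines, by 0.19 (SE 0.07, adjusted p = 0.41), and Ifi207 was higher in line B by 0.42 (SE 0.13, adjusted p = 0.26).

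**Figure D3:**
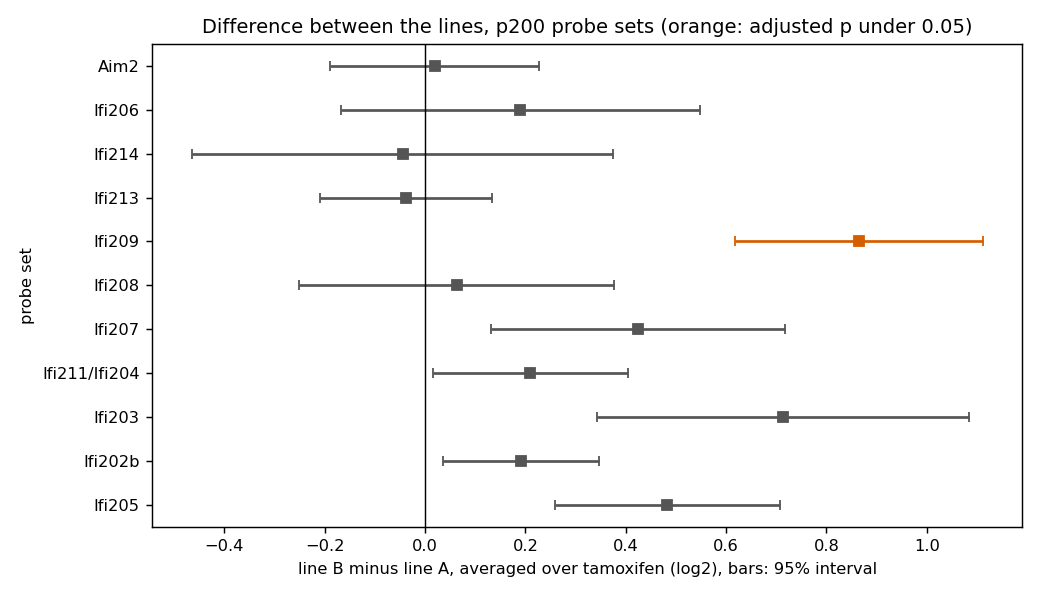
Line B minus line A, averaged over tamoxifen (log2), with 95% intervals from limma on 8 arrays, for the 11 p200 probe sets in gene order. Ifi209 (0.86, orange) passed an adjusted p of 0.05, and the intervals of Ifi203, Ifi205, Ifi207, Ifi211/Ifi204 and Ifi202b lie above 0 without passing.

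The list of blood cell markers, most of them of macrophages, which also express p200 genes, differed between the lines. Of its 16 measured genes 5 were higher in line B and 0 lower: Lyz2 (lysozyme) by 1.83 (SE 0.16, limma adjusted p = 0.00062), Tyrobp by 0.73 (SE 0.09, 0.0041), Adgre1 (a macrophage surface receptor) by 0.59 (SE 0.07, 0.003), Mpeg1 by 0.54 (SE 0.07, 0.0031) and Laptm5 by 0.59 (SE 0.11, 0.029). Laptm5 lost its call under 7 of 14 settings, 6 of them the loss of 1 array each (line A PKM2 replicate 2, either line A PKM1 array, line B PKM2 replicate 2 or either line B PKM1 array), with an adjusted p of up to 0.13. The mean of the list was between 6.40 and 6.49 on the line A arrays and between 6.77 and 6.91 on the line B arrays, and 4 to 5 against 6 to 8 of the 16 were above the olfactory 95th percentile. Ptprc, the CD45 antigen of all white blood cells, was higher in line B by 0.51 (SE 0.13, adjusted p = 0.14), and Csf1r by 0.26 (SE 0.07, 0.13). Whether either line held blood cells was not tested. Nor was any part of such cells in the line differences of Ifi203, Ifi205 and Ifi209. With tamoxifen 0 of the 16 passed in limma, 3 had an unadjusted p under 0.05, and their median difference was 0.02. Of the 13 fibroblast markers 2 rose with tamoxifen in limma, Dcn and Lum, both genes of matrix proteoglycans, and 11 did not pass. Dcn rose by 0.88 (SE 0.15, limma adjusted p = 0.026), with 1.30 (SE 0.11) in line A and 0.46 (SE 0.11) in line B. Lum rose by 1.33 (SE 0.17, limma adjusted p = 0.0065), with 1.59 (SE 0.23) in line A and 1.07 (SE 0.23) in line B. The part of these markers in the p200 values was not tested. Genes of other lists also passed between the lines. Thy1 was higher in line B (0.57, SE 0.07, limma adjusted p = 0.0024) and Lum lower (-1.58, SE 0.17, 0.0018), and 11 fibroblast markers did not pass. Of 21 inflammasome genes Il1rn was lower (-0.59, SE 0.07, 0.0022) and 20 did not pass. On the DNA sensing, interferon regulator and epithelial lists 0 passed.

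No gene of the pathways beside the p200 proteins passed with tamoxifen except Casp4 and Usp18, among the 3 lists measured. On a list of cytosolic DNA sensing, 31 of 32 genes were measured, 0 passed in limma and 6 had an unadjusted p under 0.05; the median difference was -0.04, against -0.01 over all probe sets tested. Cgas, the enzyme that makes cyclic GMP-AMP on DNA, was at 6.35 without and 6.26 with tamoxifen (-0.10, SE 0.11), and Sting1, its receptor, at 9.16 and 8.85 (-0.32, SE 0.22). Ifnb1, the interferon beta gene, was at 6.12 and 6.03 (-0.09, SE 0.09). The means of Cgas and Ifnb1 were within the range of the olfactory receptors.

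On the inflammasome list 1 of 21 genes rose, 0 fell and 20 did not pass, with a median of -0.02. Casp4, which encodes caspase-11, a sensor of bacterial lipopolysaccharide, went from 6.87 to 7.60 (0.73, SE 0.14, limma adjusted p = 0.047). That call was lost under 9 of 16 settings, with an adjusted p of up to 0.38, among them without any 1 of the line A arrays, line B PKM2 replicate 2 or line B PKM1 replicate 2. The cytokine gene Il18 was at 7.16 and 7.75 (0.59, SE 0.13, adjusted p = 0.075). Partners of Aim2 did not pass: Pycard was at 6.78 in both conditions (SE of the difference 0.07), Casp1 at 4.20 and 4.35 (0.15, SE 0.07) and Gsdmd, the pore protein of pyroptosis, at 7.47 and 7.52 (0.05, SE 0.06). The means of Pycard and Casp1 were within the range of the olfactory receptors, those of Casp1 below the olfactory median. A change in these 2 genes may therefore be missed.

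Of 13 measured interferon regulators 1 rose, 0 fell and 12 did not pass, with a median of 0.10. Usp18, a protease that limits interferon signalling, went from 7.05 to 8.30 (1.26, SE 0.09, limma adjusted p = 6e-04), and it passed under each of 16 alternative settings. Stat2 and Irf9, parts of the factor that binds the interferon element, were higher by 0.44 (SE 0.09, adjusted p = 0.068) and 0.36 (SE 0.09, 0.10), and Irf1 differed by 0.02 (SE 0.10). The receptor genes Ifnar1 and Ifnar2 differed by 0.03 (SE 0.07) and 0.15 (SE 0.08).

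**Figure D4:**
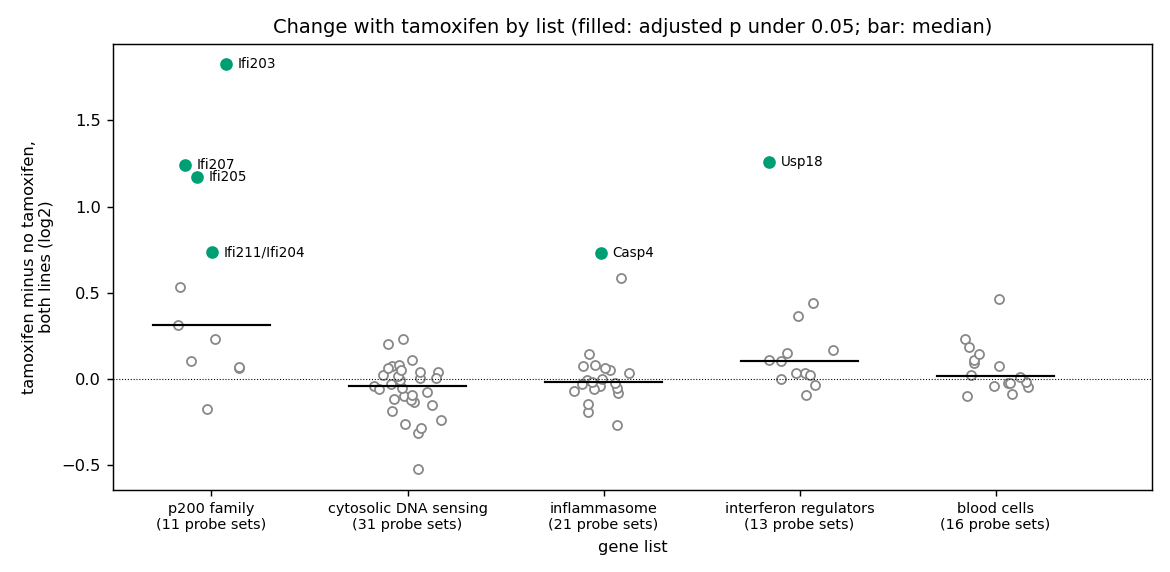
Difference with tamoxifen over both lines (log2, from limma) for each probe set of 5 lists; filled green points passed an adjusted p of 0.05 over all 23410 probe sets and are named, and black bars are medians. The largest value is 1.83 in the p200 family (Ifi203) and 1.26 on the interferon regulator list (Usp18). The bar of the p200 family is the median of members and other p200 probe sets together, which falls at Ifi214 (0.31). Taken apart, and not drawn, the median is 0.95 over the 4 member probe sets, chosen with these results known, and 0.11 over the 7 other p200 probe sets. The medians of the DNA sensing, inflammasome, interferon regulator and blood cell lists lie between -0.04 and 0.10.

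Likeness of pattern over the 8 arrays was measured by the mean absolute difference of values centred on each gene's own mean. The values were not scaled, so this distance also depends on the size of each gene's differences. Ifi203 and Ifi211/Ifi204, with tamoxifen differences of 1.83 and 0.74, lay 0.55 apart. Outside the p200 family, the 5 genes most like Ifi203 were Trim30d (0.27 log2 units), Apod (0.35), Trim30a (0.35), Usp18 (0.36) and Dpt (0.37). Within the family, Ifi207 (0.31) and Ifi205 (0.34) were closer to it than all of these but Trim30d, and Ifi213 was farthest (1.00). Ifi205 had its nearest gene within the family, Ifi207 (0.151), followed outside it by Trim30d (0.152), Irgm1 (0.17), Ccl11 (0.17), Sp100 (0.19) and Apod (0.19). The 5 nearest genes to Ifi211/Ifi204 outside the family were the chemokine gene Ccl7 (0.08), Uts2b (0.08), Prl2c5 (0.10), the interferon-induced GTPase gene Irgm1 (0.10) and Bcl2l15 (0.10), all closer than any p200 relative, of which Ifi205 (0.22) was nearest. These distances describe the same arrays that led to the choice of the family. The group means of Aim2 spanned 0.25, too little for such a comparison.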

How the data were processed

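RNA of 8 fibroblast samples was hybridised to Affymetrix arrays. Per the series' design text, RMA in Affymetrix Expression Console was the authors' normalization, and the deposited table holds the resulting log2 values, from 2.61 to 14.12. RMA equalizes the arrays' distributions and compresses differences between dim probe sets. Groups follow the titles, because a few fields name mammary tumors instead; replicate numbers only name arrays and pair nothing. No 2 arrays shared more than 24 of 35556 identical values. The platform annotation gave 1 symbol for 21789 probe sets and several for 1621, which were kept here, and 12146 are unnamed.

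Tests used limma 3.58.1 in R 4.3.3 with Benjamini-Hochberg adjustment over 23410 probe sets: a model of line and tamoxifen (5 residual degrees of freedom) for the effects over both, and one of 4 group means (4) for the effects in each line and the interaction. A listed gene with several probe sets was represented by the one with the highest mean. The fits were tested on simulated data. Members and lists were chosen with earlier results of these data known. All members, the other p200 genes, list members that passed (with a few partners of the members and others named after their values were seen) and the 5 genes outside the family of most like pattern per member whose group means spanned at least 0.5 are named. Alternatives were shifting arrays to a common median, dropping the 30% dimmest probe sets, a further quantile normalization, eBayes with trend and robust, array weights, other sets of probe sets, no line term, single lines, and leaving out each array. The number of arrays limits the precision.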

Additional observations from a re-analysis of the deposited data

How the results depend on the processing

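The tamoxifen differences of the 4 members kept their sign under every setting run, and 3 members passed over both lines without any 1 array (2 where only probe sets with 1 symbol were kept, which leaves out Ifi211/Ifi204). The number of all probe sets that passed for tamoxifen was 260, and it was 1265 with array weights, 74 over all probe sets of the table, 140 with no term for the line, and between 68 and 424 without 1 array. Between the lines it was 287, then 495 with array weights, 120 over all probe sets, and 110 to 337 without 1 array; the cause was not tested. In line A 3 members passed, and 0 did when all probe sets of the table were tested. In line B 0 passed. The share of all probe sets that passed within a line is not given here, and the choice of the family used the tamoxifen difference. These counts therefore cannot be weighed. Ifi205 passed between the lines with trend and robust (0.48) and with array weights (0.51), so that 1 member did. Aim2 between the lines was -0.010 with array weights. Without 1 array the line difference of Aim2 ranged from -0.047 to 0.092 (-0.059 to 0.14 without tamoxifen, -0.17 to 0.17 with it). The interaction ranged from -0.69 to 0.095 for Ifi203, -0.23 to 0.14 for Ifi205, -0.18 to 0.084 for Ifi211/Ifi204 and -0.21 to 0.13 for Aim2. Shifting the arrays to a common median moved them by at most 0.0447. No paired analysis was possible because the labels number no replicates within groups. Values near the olfactory receptors' range limit what can be seen of Aim2, Ifi209 and the dim relatives.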
